A study of Mus musculus with 38 samples.

Results

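The 9 genes described here are the CXC chemokines Cxcl1, Cxcl2, Cxcl5, Cxcl9, Cxcl10, Cxcl12, Cxcl13, Cxcl14 and Cxcl16. Their probes were found by gene name, and the genes were covered by 11 of the 40628 different probes of the array, which carried 29411 gene names in all. Cxcl12 and Cxcl16 had 2 probes each and were represented by the brighter one. The level of a gene was the log2 processed signal of its probe minus the log2 75th percentile of the signals of the same array, so that a level of 0 lay at that percentile and a difference of 1 was a 2-fold difference. Levels of different probes were not set against each other.

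RNA came from stromal vascular cells of epididymal fat of C57BL/6J mice, which the labels call infiltrating macrophages, and was hybridised to 38 one-colour arrays. Mice weaned at 3 to 4 weeks were given 1 of 5 diets. LFC was a diet with 10% of calories from fat, and HFC a diet rich in sucrose with 60% of calories from fat. HF5, HF20 and HF75 were the HFC diet with 5, 20 or 75 µg of KAL-1, a botanical formulation. A single array (n = 1) stood for LFC and for HFC at Days 6, 10 and 14 and at Weeks 0, 3, 6, 9, 12, 15 and 18, 10 time points in all, and likewise for every dose at the 6 of these that began with Week 3. The labels give 30 animals per group, of which 5 were killed every 3 weeks. The series design text speaks of 3 replicates, but 1 array stood for each diet and time point here, and whether it held RNA of 1 animal or of several is not given in the sources used here. The tests of diets and doses below therefore measured differences against the spread over time points, and that spread may be technical. The slope over time was tested against the spread of single arrays around a line.

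Chemokines are small secreted proteins that direct the movement of leukocytes through receptors on their surface, and the CXC family is named for a residue that separates the first pair of conserved cysteines. The ligands with an ELR motif before these cysteines (here Cxcl1, Cxcl2 and Cxcl5) act on Cxcr2 and attract neutrophils, and their genes are typical targets of NF-kappaB. Cxcl9 and Cxcl10 are induced by interferons and act on Cxcr3 of T cells, Cxcl12 acts on Cxcr4 and is made by stromal and vascular cells, Cxcl13 attracts B cells through Cxcr5, and Cxcl16 is a membrane-bound ligand of Cxcr6. Cxcl14 is an epithelial and stromal chemokine whose receptor is less settled. In fat, such chemokines are made by stromal cells, vessel cells and macrophages.

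The promoters of 7 of the 9 genes were matched in RefSeq (GRCm38.p6). The 250 bases before the start are shown for the ELR ligands Cxcl1 and Cxcl2, whose levels moved most closely together, and for the interferon-induced ligands Cxcl9 and Cxcl10, whose levels ran together less closely. Capitals mark matches, on either strand, to the NF-kappaB consensus and to the core of the interferon-stimulated response element (ISRE, GAAANNGAAA).
Cxcl1, chr5:90890995-90891244, plus strand: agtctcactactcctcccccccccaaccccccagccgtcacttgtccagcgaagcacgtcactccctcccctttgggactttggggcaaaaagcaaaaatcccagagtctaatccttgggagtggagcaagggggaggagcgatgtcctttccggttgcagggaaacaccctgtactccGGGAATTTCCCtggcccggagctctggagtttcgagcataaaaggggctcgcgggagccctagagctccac
Cxcl2, chr5:90903649-90903898, plus strand: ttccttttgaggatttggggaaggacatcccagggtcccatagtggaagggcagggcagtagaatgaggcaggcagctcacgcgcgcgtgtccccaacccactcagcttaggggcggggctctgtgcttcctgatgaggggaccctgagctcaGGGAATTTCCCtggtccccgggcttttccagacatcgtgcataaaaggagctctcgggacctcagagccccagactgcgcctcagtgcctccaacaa
Cxcl9, chr5:92328080-92328329, minus strand: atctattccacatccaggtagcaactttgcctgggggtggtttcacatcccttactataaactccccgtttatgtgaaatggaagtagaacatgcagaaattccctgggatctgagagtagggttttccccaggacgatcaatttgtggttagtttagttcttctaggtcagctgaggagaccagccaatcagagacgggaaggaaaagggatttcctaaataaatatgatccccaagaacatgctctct
Cxcl10, chr5:92348890-92349139, minus strand: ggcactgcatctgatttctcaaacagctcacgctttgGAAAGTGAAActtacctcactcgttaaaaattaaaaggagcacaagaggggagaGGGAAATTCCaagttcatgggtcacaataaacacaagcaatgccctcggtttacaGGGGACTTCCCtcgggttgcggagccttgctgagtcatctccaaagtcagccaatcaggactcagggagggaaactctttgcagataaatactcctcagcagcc
Cxcl1 and Cxcl2 carried the same run, GGGAATTTCCC, from bases 71 to 61 and from bases 97 to 87 before the start, which matched the NF-kappaB consensus on both strands with the matches overlapping. Cxcl10 held NF-kappaB matches from base 159 to 150 and from base 104 to 94, and an ISRE core from base 213 to 204. Cxcl9, Cxcl12 and Cxcl13 held no match to these motifs or to the core of the interferon gamma-activated site (GAS, TTCNNNGAA). Cxcl14 held an ISRE core (GAAACAGAAA, bases 172 to 163) and a GAS core (TTCTGAGAA, bases 191 to 183). Of all 32851 windows of this length, 7.25% held the NF-kappaB consensus, 2.98% the ISRE core and 7.02% the GAS core. These matches describe letters in the windows and not binding.

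The arrays differed in brightness and in the level of marker genes, and the part of diet in this was not tested. The 75th percentile signal ran from 25.82, on the HF5 array of Week 12, to 1983, and HFC was brighter than LFC at 9 of 10 time points. Macrophage genes were well above background, for 10 of 10 genes in a fraction of 0.5 or more of all arrays. Adipocyte genes stood highest on 4 arrays (LFC and HFC of Week 9, LFC and HF75 of Week 12), with a mean level over 9 genes from 4.78 to 5.14 against -0.66 to 3.85 on the others. The same 4 arrays had a mean level of 9 immediate early genes from -0.0042 to 1.85 against 4.09 to 5.83 on the others. Visceral fat genes were lowest on the LFC arrays of Days 6 and 10 (-6.54 and -7.07) and on the 5 arrays of Week 6 (-4.64 to -6.29), against -4.29 or above on the others. HF5 and HF20 at Weeks 15 and 18 carry a diet label that names the other dose, and their dose was taken from title and source. HFC and LFC of a time point were scanned on the same day at 10 of 10 time points, whereas for 8 of the 18 dose arrays the scan day differed from that of the HFC array they were set against.

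The spread of the levels over the 38 arrays rested in part on the 4 adipocyte-rich arrays and on values near background. The level of Cxcl1 spanned 9.13 log2 units, and 3.28 over the other 34 arrays. Cxcl2 spanned 11.71, of which 7.19 lay between arrays well above background, and 5.66 without the 4 adipocyte-rich arrays. Cxcl5 spanned 8.58, and 6.82 between arrays well above background. Cxcl10 spanned 7.07 (4.52 without the 4), Cxcl14 4.95 (4.05) and Cxcl16 4.03 (3.13), while Cxcl9 (5.77), Cxcl13 (5.39) and Cxcl12 (3.90) spanned the same without the 4. Cxcl1, Cxcl10, Cxcl12, Cxcl14 and the brighter Cxcl16 probe were well above background on 38 of 38 arrays, Cxcl9 on 37, Cxcl13 on 36, Cxcl2 on 35 and Cxcl5 on 20. The plot of levels by time point shows that the widest excursions of Cxcl1 and Cxcl2 were at Weeks 9 and 12.

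**Figure D1:**
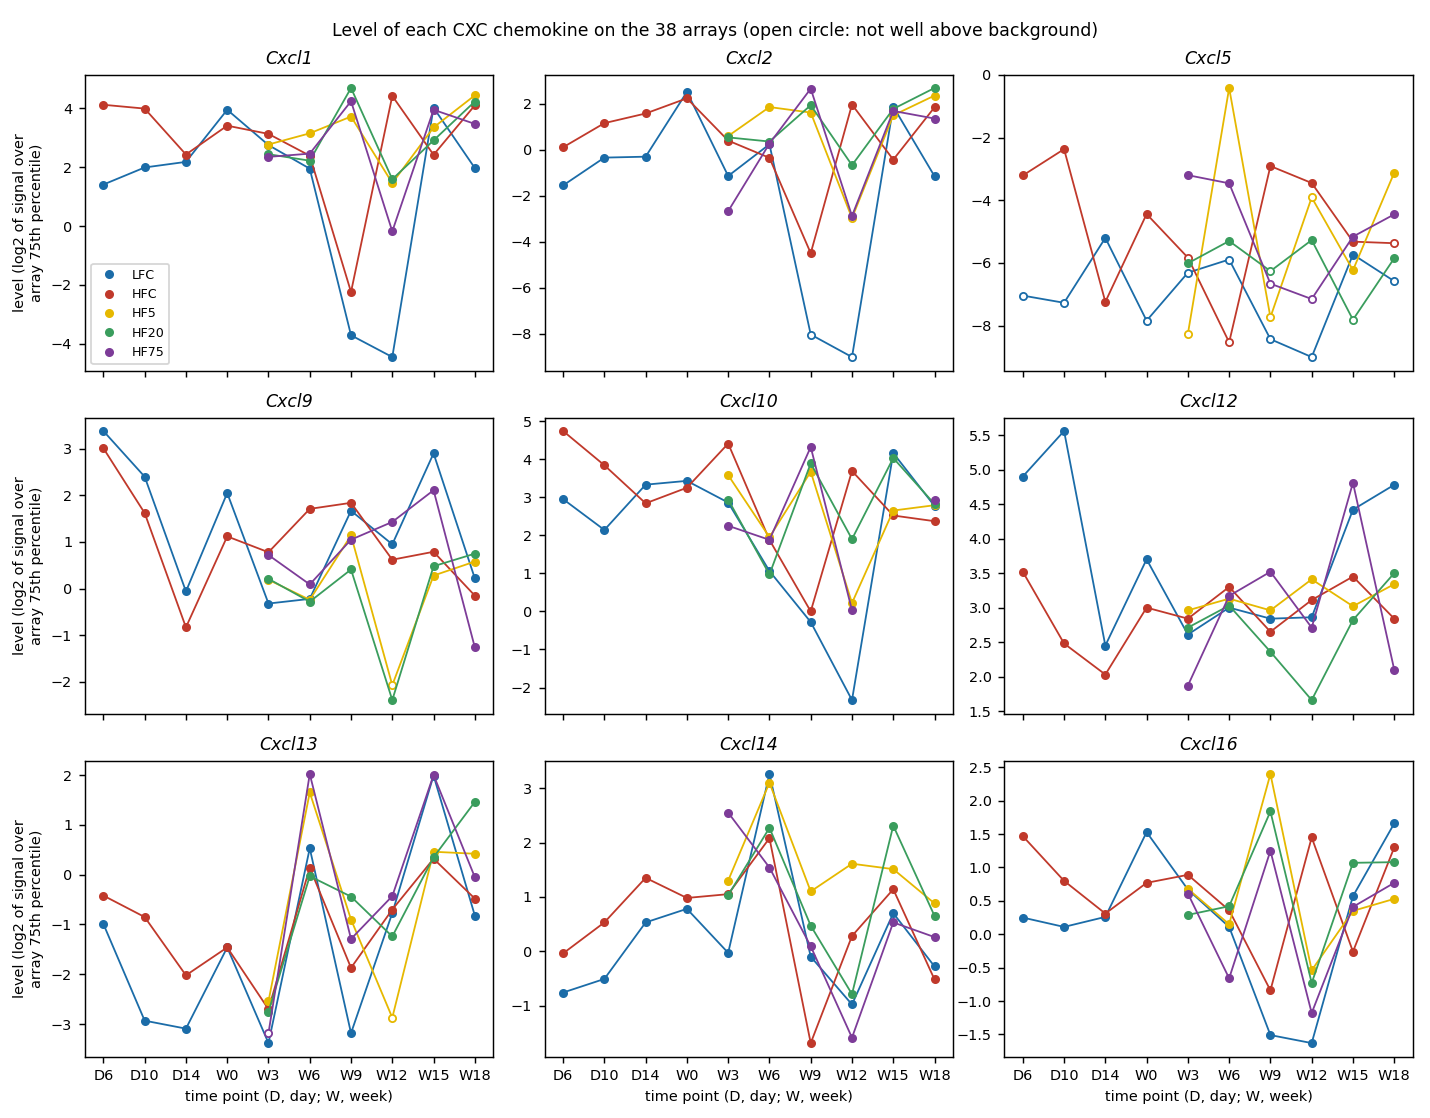
Level (log2 processed signal minus the log2 75th percentile of the array, y axis) of each CXC chemokine at each time point (x axis), 1 point per array, coloured by diet, with open circles for probes not well above background. Cxcl1 and Cxcl2 drop on LFC of Weeks 9 and 12 and on HFC of Week 9, where Cxcl2 reads -8.04, -9.02 and -4.50.

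The first question was how the diet rich in fat and sucrose differed from the low-fat diet. Cxcl1, a neutrophil attractant, had its lowest level at -4.45, its median at 1.98 and its highest at 4.02 on the 10 LFC arrays, and at -2.24, 3.27 and 4.42 on the 10 HFC arrays. The diets overlapped, and HFC was higher at 8 of 10 time points, by 1.61 (3.06-fold, SE 0.81, 95% interval -0.16 to 3.38, adjusted p = 0.545 by limma with Benjamini-Hochberg adjustment over all probes tested). The Week 12 pair alone differed by 8.87, and the mean difference was 0.80 without it and 0.72 without Weeks 9 and 12.

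Cxcl2, a neutrophil attractant made by activated macrophages, ran from -9.02 through a median of -0.74 to 2.52 on LFC and from -4.50 through 0.78 to 2.24 on HFC. It was higher on HFC at 7 of 10 time points, by 2.10 (4.27-fold, SE 1.01, 95% interval -0.11 to 4.29, limma adjusted p = 0.545). LFC was not well above background at Weeks 9 and 12, so that the differences of 3.54 and 10.99 there were taken against values near background. Without Week 12 the difference was 1.11, and without Weeks 9 and 12 it was 0.80. The Week 9 and Week 12 LFC arrays and the Week 9 HFC array were those rich in adipocyte genes and low in immediate early genes, and the part of these in the difference was not tested.

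Cxcl5, an ELR ligand made by epithelial and stromal cells, had a lowest, median and highest level of -9.00, -6.82 and -5.20 on LFC and of -8.53, -4.88 and -2.37 on HFC. It was well above background on 2 of 10 LFC arrays and 7 of 10 HFC arrays, and so entered the test only through HFC. HFC was higher at 8 of 10 time points, by 2.06 (4.18-fold, SE 0.85, 95% interval 0.20 to 3.93, limma adjusted p = 0.544). This difference was measured above background on both arrays only at Day 14 and Week 15, where HFC was lower by 2.04 and higher by 0.41. With normexp background correction the difference was -0.25.

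Cxcl9 and Cxcl10, the interferon-induced ligands, differed less between the diets. Cxcl9 ran from -0.32 through 1.31 to 3.38 on LFC and from -0.83 through 0.96 to 3.01 on HFC, and was higher on HFC at 3 of 10 time points, with a difference of -0.245 (SE 0.33, 95% interval -0.97 to 0.48), which ran from -0.49 without Week 6 to -0.038 without Week 15. Both diets had their highest Cxcl9 level at Day 6. Cxcl10 ran from -2.33 through 2.82 to 4.16 on LFC and from -0.0043 through 3.04 to 4.74 on HFC, with a difference of 0.95 (SE 0.60, 95% interval -0.36 to 2.25, higher at 6 of 10 time points). Without Week 12, where the Cxcl10 pair differed by 6.03, it was 0.38.

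Cxcl12, the ligand of Cxcr4, was the only one of the 9 with a lower level on HFC at an unadjusted p below 0.05. It ran from 2.45 through 3.35 to 5.56 on LFC and from 2.03 through 2.92 to 3.52 on HFC. The difference was -0.79 (1.73-fold lower, SE 0.32, 95% interval -1.50 to -0.083, limma p = 0.0316, adjusted p = 0.544), with HFC higher at 3 of 10 time points. The LFC arrays of Days 6 and 10 and Weeks 0, 15 and 18 (4.90, 5.56, 3.70, 4.42 and 4.78) lay above all 10 HFC arrays, and the other 5 LFC arrays overlapped with them. Without Days 6 and 10 the difference was -0.43, and with array brightness as a covariate it was -0.11. A second probe, which targets another transcript of Cxcl12, gave a mean of the opposite sign, 0.21 (SE 0.32). By this probe HFC was nevertheless higher at only 4 of 10 time points, with a median difference of -0.21. Its widest difference, 2.52, was at Week 9, where LFC read -1.95 and HFC 0.57, both on adipocyte-rich arrays. Endothelial genes moved with Cxcl12, since 7 of 7 were lower on HFC (median -0.63) and their mean level ran from 0.60 to 4.79 on LFC and from 0.93 to 2.59 on HFC. Their part in the Cxcl12 difference was not tested, and in such bulk RNA fewer cells of a type and less RNA per cell cannot be told apart.

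As for Cxcl1, Cxcl2, Cxcl9 and Cxcl10, the 95% intervals of the remaining ligands covered 0 by the probes that represented them. Cxcl13, the B cell attractant, ran from -3.38 through -1.23 to 1.99 on LFC and from -2.70 through -0.77 to 0.32 on HFC, with a difference of 0.41 (SE 0.30), which was -0.047 with array brightness as a covariate. Cxcl14 ran from -0.98 through -0.062 to 3.26 on LFC and from -1.69 through 0.76 to 2.08 on HFC, with a difference of 0.25 (SE 0.29). Cxcl16, the ligand of Cxcr6, ran from -1.63 through 0.26 to 1.66 on LFC and from -0.84 through 0.78 to 1.47 on HFC, with a difference of 0.42 (SE 0.33), which was 0.13 without Week 12, where the pair differed by 3.08. Without Day 10 the Cxcl13 difference was 0.22, and the Cxcl14 difference ran from 0.14 without Week 12 to 0.46 without Week 9. The dimmer Cxcl16 probe gave 0.92 (SE 0.38, 95% interval 0.087 to 1.76, limma p = 0.0333, adjusted p = 0.544, higher at 6 of 10 time points).

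**Figure D2:**
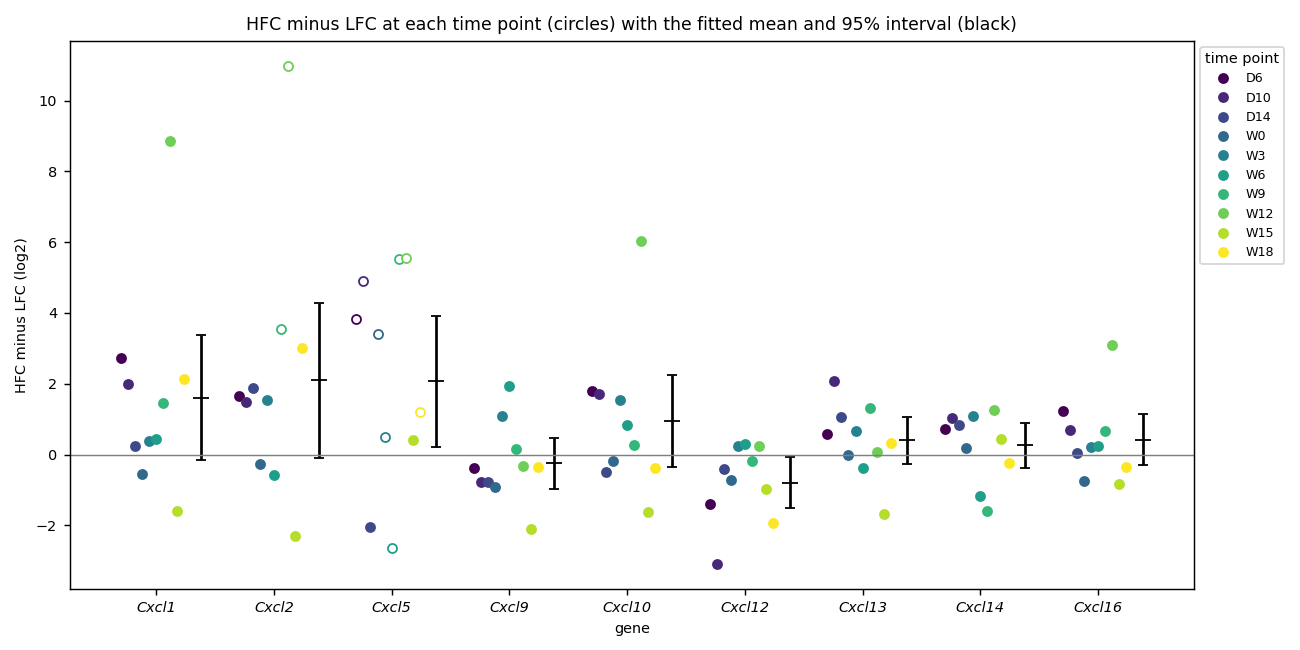
HFC minus LFC (log2, y axis) for each CXC chemokine (x axis) at each of the 10 time points (circles, open where 1 or both arrays were not well above background), with the fitted mean and its 95% interval in black. The circle of Week 12 stands apart for Cxcl1 (8.87), Cxcl2 (10.99) and Cxcl10 (6.03).

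No CXC chemokine probe passed the test. Of 31040 probes tested between HFC and LFC, limma called 0 (0%) at an adjusted p below 0.05, with 2824 at an unadjusted p below 0.05. Of the 11 CXC chemokine probes 0 were called, and 9 were higher and 2 lower on HFC, with a median difference of 0.42 against 0.0061 over all probes. At an unadjusted p below 0.05, 2 of the 11 (Cxcl5 and the dimmer Cxcl16 probe) were higher, against 4.57% of all probes. By the same rule 1 (Cxcl12) was lower, against 4.52%. Cxcl5 was tested only because enough HFC arrays were above background, the diet where it was higher, so its p is no support for this count. No CXC chemokine probe reached that level without Day 6, without Day 10 or with slide as a random block, and 5 did without Week 15. Macrophage genes were higher on HFC for 10 of 10 (median 0.76, 0 passed the test and 5 had an unadjusted p below 0.05), with a mean level from 0.86 to 2.57 on LFC and from 0.66 to 3.08 on HFC, and epididymis genes were higher for 9 of 9 (median 1.90), mesothelial genes for 9 of 9 (median 1.80) and testis and sperm genes for 5 of 5 (median 1.28). Brown fat genes were lower for 4 of 5 (median -1.77) and skeletal muscle genes for 6 of 6 (median -0.90). None of these genes passed the test, and their part in the chemokine differences was not tested.

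The second question was how levels changed with time on LFC and HFC, as a slope per week from Day 6 to Week 18. No time block entered this fit, so arrays of both diets that shared a time point counted as independent, and its p-values may be too small. HFC and LFC were scanned together at 10 of 10 time points, each time on another day. Change with time and scan day can therefore not be told apart. The limma fit called 154 of 31040 probes (0.496%), and 0 of the 11 CXC chemokine probes. With scan day as a random block it called fewer probes, as given below. Cxcl13 had the slope of smallest p, at 0.096 log2 units per week (SE 0.041, 95% interval 0.010 to 0.18, limma p = 0.0303, adjusted p = 0.389). It was the 1 member probe with a positive slope at an unadjusted p below 0.05, against 5.16% of all probes, and 0 had a negative one, against 6.21%. Cxcl13 stood at -0.99, -2.93 and -3.09 on LFC at Days 6, 10 and 14 and at 1.99 and -0.82 at Weeks 15 and 18, so that its path was uneven. On HFC it stood at -0.42, -0.85 and -2.02 on these days and at 0.32 and -0.48 in these weeks. The slope was 0.055 without Week 15. The slopes of the other members ran from -0.097 (Cxcl2) to 0.011 (Cxcl12), with intervals that covered 0.

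Slopes of HFC and LFC did not differ by the test for any probe. The limma fit called 0 of 31040 (0%), with 1358 at an unadjusted p below 0.05, and 0 of 11 CXC chemokine probes. At an unadjusted p below 0.05 there were 0 members in either direction, against 3.17% of all probes with a larger slope on HFC and 1.2% with a smaller one. Cxcl13 differed most by p, with a slope smaller by 0.075 per week on HFC (SE 0.042, 95% interval -0.17 to 0.018, adjusted p = 0.981).

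The third question was whether KAL-1 changed levels on the HFC diet at Weeks 3 to 18. All doses were set against the same 6 HFC arrays, so their differences are not independent. In the HF5 comparison 0 of 33584 probes were called (0%), with 1590 at an unadjusted p below 0.05, and 1 of 11 CXC chemokine probes was higher at an unadjusted p below 0.05, against 3.68% of all probes, and 0 lower, against 1.06%. In the HF20 comparison 0 were called (0%), 517 had an unadjusted p below 0.05, and 0 members were higher (1.3% of all probes) or lower (0.235%) at that level. In the HF75 comparison 0 were called (0%), 662 had an unadjusted p below 0.05, and 0 members were higher (0.706% of all probes) or lower (1.27%) at that level. For the mean of the doses 0 were called (0%), 588 had an unadjusted p below 0.05, and 0 members were higher (1.45% of all probes) or lower (0.298%) at that level. The median difference of the 11 probes was 0.11, 0.18 and 0.13 for HF5, HF20 and HF75, against -0.026, 0.043 and 0.037 over all probes.

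Cxcl14 was the member behind the HF5 count. It read 1.30, 3.10, 1.10, 1.61, 1.51 and 0.88 on HF5 at Weeks 3, 6, 9, 12, 15 and 18, and 1.05, 2.08, -1.69, 0.28, 1.14 and -0.52 on HFC. HF5 was higher at 6 of 6 weeks, by 1.19 (2.28-fold, SE 0.46, 95% interval 0.24 to 2.15, limma p = 0.0168, adjusted p = 0.872), while the levels of both diets overlapped. In the same comparison testis and sperm genes were higher for 6 of 6 (median 2.69) and mesothelial genes lower for 9 of 9 (median -0.64). Immediate early genes were higher for 9 of 9 (median 0.80) and neutrophil genes for 9 of 10 (median 0.95). Adipocyte genes were lower for 7 of 9 (median -0.29), and their mean level gave r = -0.59 with Cxcl14 over all arrays and -0.35 without the 4 adipocyte-rich ones. Of all these genes 0 passed the test, and their part in the Cxcl14 difference was not tested. The difference was 0.87 over the 5 weeks scanned on the day of HFC, 5 of 5 of them higher, and 2.79 at Week 9, scanned on another day and set against the adipocyte-rich HFC array. The unadjusted p was no longer below 0.05 without Week 9. With the dose taken from the conflicting diet label the difference was 1.29, and without the 4 arrays in question 1.31. HF20 and HF75 differed from HFC in Cxcl14 by 0.60 (SE 0.46, 95% interval -0.36 to 1.56) and 0.17 (SE 0.46, 95% interval -0.79 to 1.13).

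The mean of Cxcl9 was lower than on HFC at each dose. It read 0.78, 1.71, 1.84, 0.62, 0.79 and -0.15 on HFC at Weeks 3 to 18, 0.19, -0.24, 1.14, -2.07, 0.28 and 0.58 on HF5, 0.21, -0.28, 0.41, -2.39, 0.48 and 0.75 on HF20, and 0.72, 0.09, 1.05, 1.43, 2.11 and -1.26 on HF75. The differences were -0.95 for HF5 (SE 0.55, 95% interval -2.08 to 0.18), -1.07 for HF20 (SE 0.55, 95% interval -2.20 to 0.062) and -0.24 for HF75 (SE 0.55, 95% interval -1.38 to 0.89), and none passed. HF5 and HF20 were higher than HFC only at Week 18. Week 12 gave the widest differences (-2.69 and -3.01), and without it they were -0.60 and -0.68, while HF75 was 0.033 without Week 6. The HF5 value of Week 12 came from the dimmest array and was not well above background. With the dose from the conflicting label the Cxcl9 differences were -0.89 for HF5 and -1.13 for HF20, and without the 4 arrays in question -1.21 and -1.48. Adipocyte genes (r = 0.47 with Cxcl9) were lower than HFC for 7, 8 and 6 of 9 on HF5, HF20 and HF75 (medians -0.29, -1.51 and -0.16). Interferon gamma response genes (r = 0.61) were lower for 6, 7 and 4 of 10 (medians -0.13, -0.17 and 0.091). The part of either list in the Cxcl9 differences was not tested.

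The other members had wide intervals. For the mean of the doses the difference from HFC was 0.59 for Cxcl1 (SE 0.91), 0.85 for Cxcl2 (SE 1.09), -0.11 for Cxcl5 (SE 0.90), 0.097 for Cxcl10 (SE 0.66), -0.084 for Cxcl12 (SE 0.31), 0.47 for Cxcl13 (SE 0.41) and 0.0037 for Cxcl16 (SE 0.43). The Cxcl10 spot of HF75 at Week 15 was marked as an outlier and left out. These values differed between arrays scanned on the day of HFC and on other days, but scan day went with week. Over the 10 dose arrays scanned on the day of HFC the mean difference was -0.69 for Cxcl1 and -0.25 for Cxcl2, while over the other 8 it was 2.19 and 2.22. For Cxcl10 it was -0.95 over 9 and 1.16 over 8, and for Cxcl16 -0.53 and 0.67. All 3 arrays of Week 9, where the HFC array was rich in adipocyte genes, were among the 8. There the Cxcl1 differences were 6.0, 6.9 and 6.5. All 3 dose arrays of Week 12 were scanned on the day of HFC, with Cxcl1 differences of -3.0, -2.8 and -4.6. Outside these weeks Cxcl1 differences ran from -0.36 to 1.53 on the same day and from -0.78 to 0.13 on other days. Without the 4 adipocyte-rich arrays the mean of doses was -0.41 for Cxcl1, -0.19 for Cxcl2, -0.57 for Cxcl10 and -0.48 for Cxcl16.

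**Figure D3:**
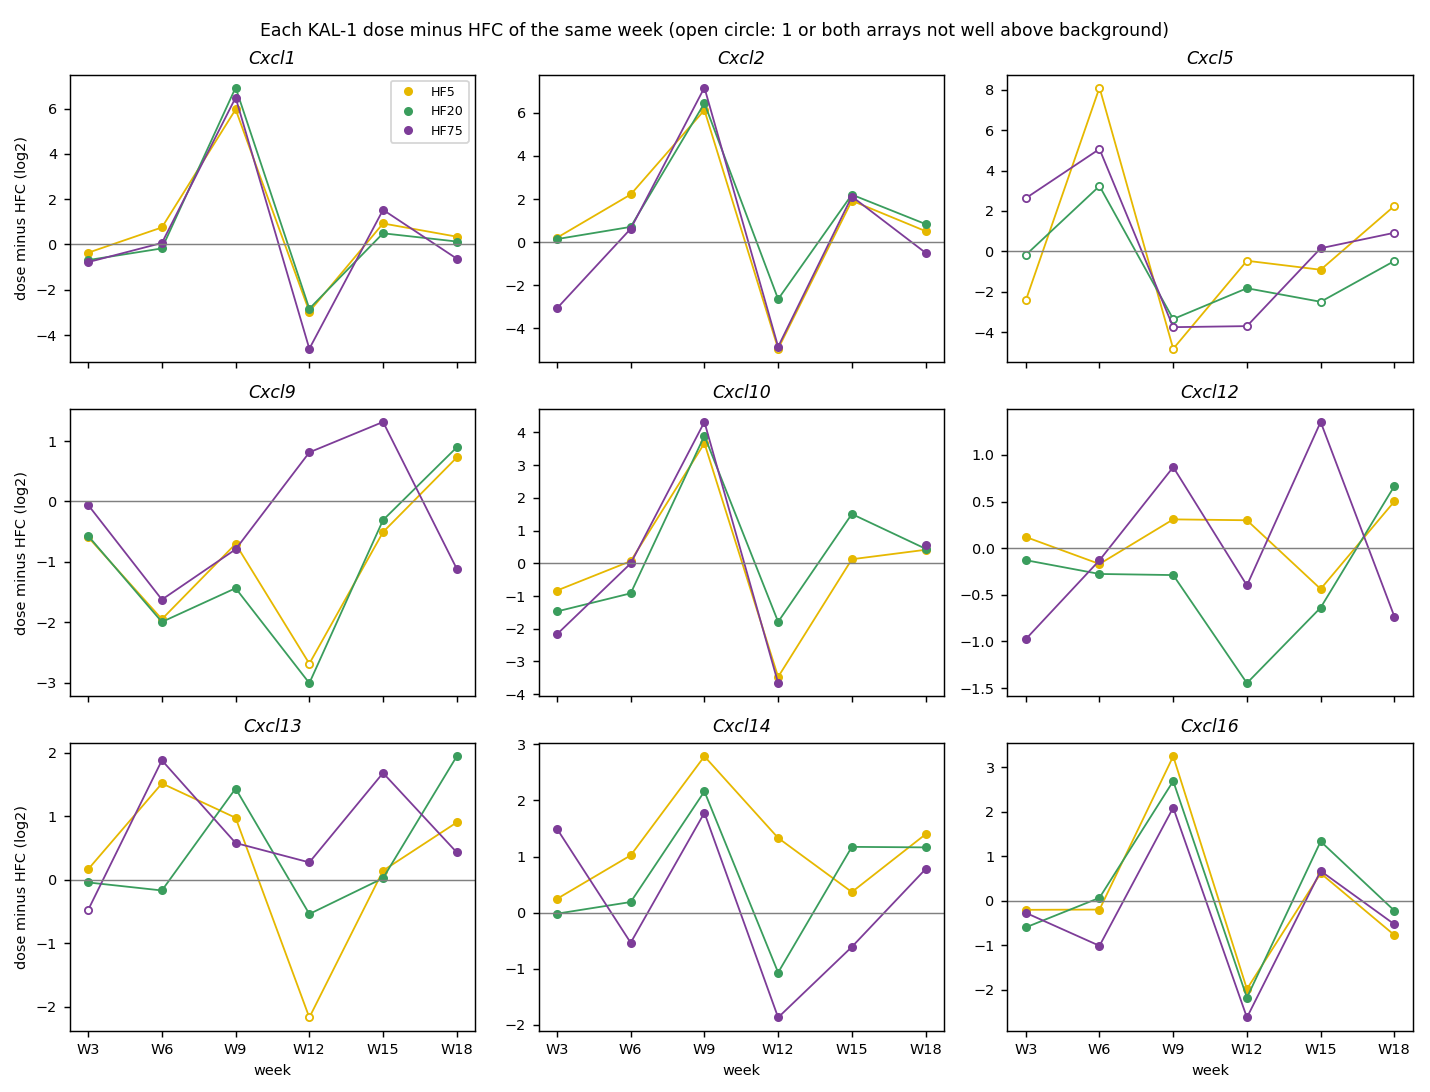
Each KAL-1 dose minus the HFC array of the same week (log2, y axis) for each CXC chemokine by week (x axis), coloured by dose, with open circles where 1 or both arrays were not well above background. At Week 9 all doses lie above HFC for Cxcl1, Cxcl2, Cxcl10, Cxcl13, Cxcl14 and Cxcl16, and HF5 lies above HFC at 6 of 6 weeks for Cxcl14.

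The order of the diets by mean level at Weeks 3 to 18 differed from gene to gene. LFC was lowest for Cxcl1, Cxcl2, Cxcl5, Cxcl10, Cxcl13 and Cxcl16 and highest for Cxcl12, HFC was highest for Cxcl9, and HF5 was highest for Cxcl1, Cxcl5 and Cxcl14. The means spanned 3.98 for Cxcl2 and 2.72 for Cxcl1, and 0.68 for Cxcl16. Without Weeks 9 and 12 they spanned 1.63, 0.75 and 0.47, LFC was then lowest for Cxcl1, Cxcl2 and Cxcl14 and highest for Cxcl12 and Cxcl16, and HFC was highest for Cxcl9 and Cxcl10. In the orders over all of Weeks 3 to 18, no neighbours differed by more than the larger of their SDs (0 for each of the 9 genes). The orders without Weeks 9 and 12 were not set against SDs.

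The 4 adipocyte-rich arrays set the lowest levels of several members. Cxcl1 stood at -3.71, -2.24, -4.45 and -0.18 on LFC and HFC of Week 9 and LFC and HF75 of Week 12, against 1.41 to 4.69 on the other 34 arrays, with no overlap. Cxcl10 stood at -0.28, -0.0043, -2.33 and 0.032, against 0.22 to 4.74 on the other 33, and Cxcl16 at -1.51, -0.84, -1.63 and -1.18, against -0.73 to 2.40. For Cxcl2, 3 of the 4 lay below all others, and the HF5 array of Week 12, the dimmest, was the next lowest. Cxcl9 went the other way, with 1.67, 1.84, 0.95 and 1.43, all above the median of the others (0.53). Cxcl12 stood at 2.84, 2.65, 2.86 and 2.71, within the range of the others (1.66 to 5.56). Immediate early genes, which respond to stimulation without new protein synthesis, were low on the same arrays, and their part in these levels was not tested.

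**Figure D4:**
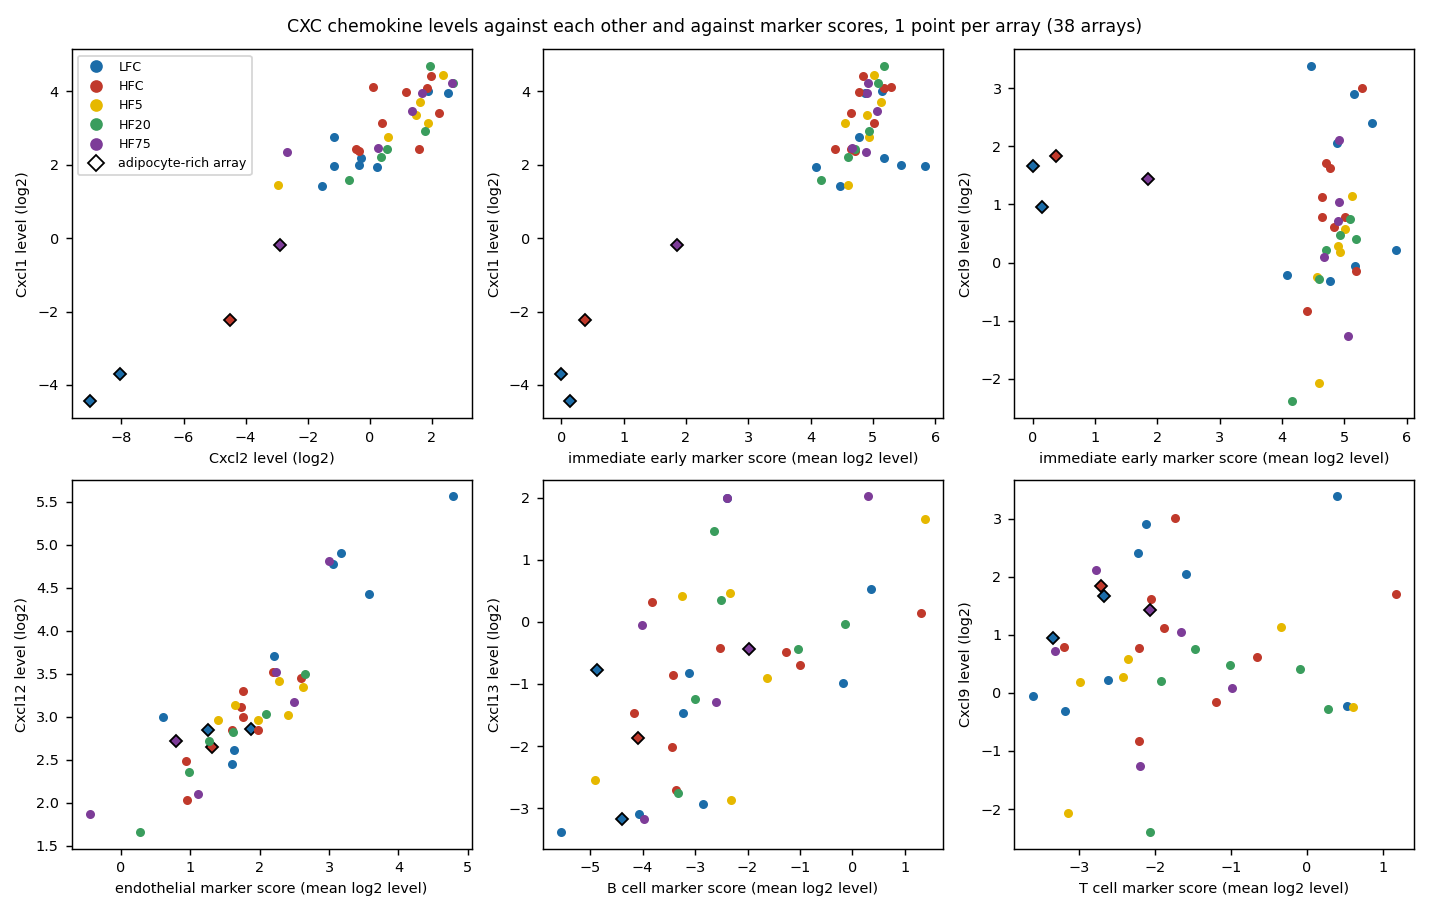
Level of a CXC chemokine (log2, y axis) against the level of Cxcl2 or the mean level of a marker list (log2, x axis), 1 point per array, coloured by diet, with the 4 adipocyte-rich arrays as diamonds. Cxcl1 follows Cxcl2 over all arrays (r = 0.94) and Cxcl12 follows the endothelial genes (r = 0.90), while the relation of Cxcl1 to immediate early genes lies mostly between the 4 diamonds and the rest.

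Members were then set against each other over the 38 arrays, as a description. The arrays share time points, slides and brightness. Of the 36 pairs, the median Pearson r was 0.18, and 6 were below 0. Cxcl1 and Cxcl2, which lie side by side on chromosome 5, were the most alike (r = 0.94), and r was 0.79 over the 34 arrays without the adipocyte-rich ones. Cxcl1 and Cxcl10 gave 0.85 and 0.63, Cxcl10 and Cxcl16 0.81 and 0.64, and Cxcl1 and Cxcl16 0.80 and 0.65. Cxcl9 and Cxcl10, which share a receptor, gave 0.18 over all arrays and 0.52 without the 4. Cxcl9 and Cxcl12 gave 0.58 and 0.64.

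**Figure D5:**
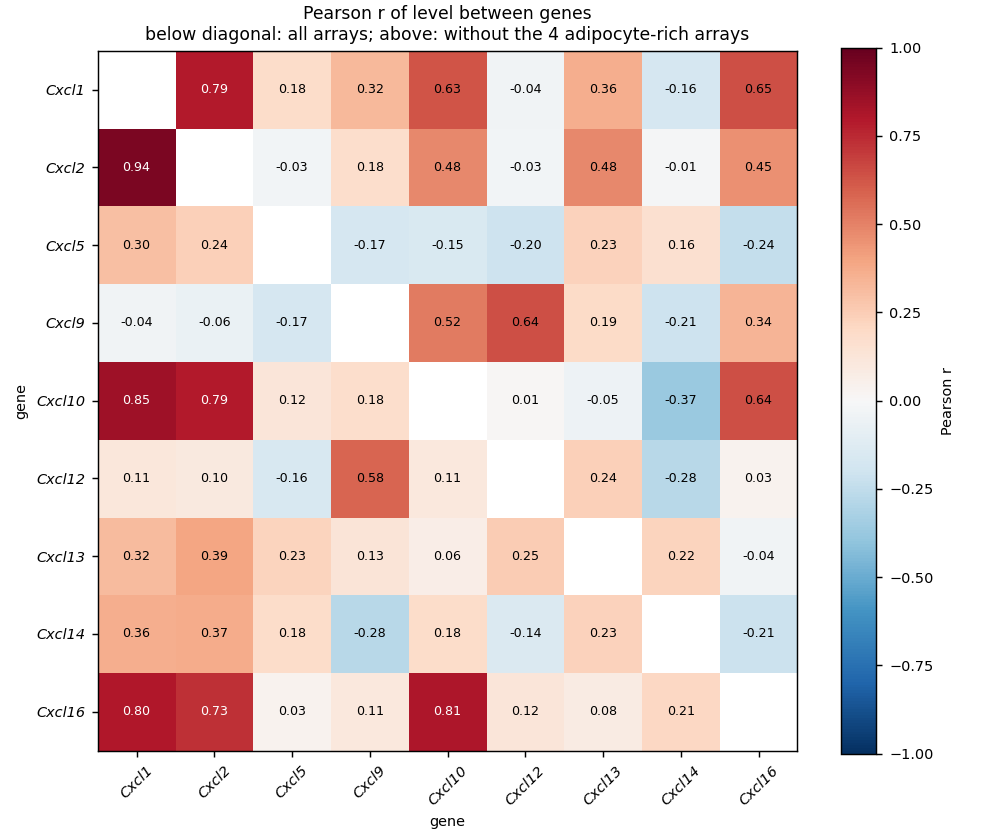
Pearson r of level between each pair of CXC chemokines (colour and printed value), over all arrays below the diagonal and without the 4 adipocyte-rich arrays above it. Cxcl1, Cxcl2, Cxcl10 and Cxcl16 form the block of highest r, led by Cxcl1 and Cxcl2 at 0.94 below and 0.79 above the diagonal.

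The members also differed in which gene lists their level ran with, again as a description. The mean level of 11 inflammatory NF-kappaB target genes, among them Tnf, Il1b and Ccl2, gave r = 0.97 with Cxcl1, 0.95 with Cxcl2, 0.89 with Cxcl10 and 0.85 with Cxcl16, and 0.87, 0.85, 0.76 and 0.75 without the 4 arrays. The mean level of 10 interferon gamma response genes gave 0.61 with Cxcl9, 0.64 with Cxcl10 and 0.62 with Cxcl16 over all arrays. Without the 4 these were 0.78, 0.56 and 0.51. Cxcl1 and Cxcl2 were close to them at 0.54 and 0.51 over all arrays, and 0.40 and 0.305 without the 4. Cxcl12 ran with 7 endothelial genes, among them Pecam1, Cdh5 and Kdr, at 0.90 and 0.90. Cxcl13 gave 0.57 and 0.56 with 6 B cell genes. It gave more with the CXC receptors (0.62 and 0.62) and with the enzymes that process CXC ligands (0.62 and 0.60). With neutrophil and T cell genes it gave 0.47 and 0.45 over all arrays. Cxcl1 gave 0.90 with the immediate early genes over all arrays and 0.38 without the 4, and Cxcl10 gave 0.79 and 0.46. Macrophage genes gave 0.34 with Cxcl1, 0.42 with Cxcl2, 0.34 with Cxcl10 and 0.51 with Cxcl16 over all arrays. Without the 4 these were 0.72, 0.73, 0.48 and 0.66. Cxcl10 also gave -0.63 with skeletal muscle genes and 0.45 with mesothelial genes, and -0.77 and 0.63 without the 4. The part of cell types in these relations was not tested.

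Genes closest to each member in level were found among 28960 probes. Tnfsf9 (r = 0.95), Cxcl2 and Nfkbiz (0.94) were nearest to Cxcl1, and Cxcl1, Ccl3 (0.93) and Tnfsf9 (0.92) to Cxcl2. Socs1 (0.90), Maff and Ccrl2 (both 0.88) were nearest to Cxcl10, and Ccrl2 (0.89), Tlr2 (0.88) and Bcl2a1b (0.87) to Cxcl16. Arhgef15, Hspa12b (both 0.92) and Unc45b (0.91) were nearest to Cxcl12. For Cxcl14 they were Col23a1, Gm600 (both 0.77) and Kcnn2 (0.76), and for Cxcl5, at lower r, Timp1 (0.68), Loxl4 (0.65) and Trpm4 (0.60). The probes nearest to Cxcl9 (Gm6100 at 0.81, LOC435565 at 0.81 and Gm13998 at 0.80) and to Cxcl13 (LOC100047316 at 0.81, Gm10880 and LOC675735 both at 0.77) carry names of predicted genes. Without Weeks 9 and 12 (28 arrays) r was 0.68, 0.69 and 0.52 for Ccrl2, Tlr2 and Bcl2a1b with Cxcl16, between 0.69 and 0.81 for the genes named beside Cxcl1, Cxcl2 and Cxcl10, and 0.92 to 0.94 for those beside Cxcl12.

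The rest of the pathway was described by 5 lists with 39 genes on the array, of which 37 were tested. In HFC against LFC 0 passed, and 29 were higher and 8 lower (median 0.41 against 0.0061 over all probes). The genes were read on the same arrays, so such counts are not independent. All 11 NF-kappaB target genes were higher on HFC (median 1.26), beside the mesothelial and epididymis genes above. The mean level of the 11 ran from -2.95 to -0.27 on the 4 adipocyte-rich arrays, of which 2 were LFC and 1 was HFC, and from 0.57 to 4.03 on the others, and the part of these arrays was not tested. Also higher on HFC were 6 of 7 CXC receptors (median 0.22) and 6 of 10 interferon gamma response genes (median 0.15). The pathway genes of smallest p, none passing, were Cxcl15, Ifng and Cxcl3. Cxcl15, an ELR ligand of the lung, differed by -1.63 (SE 0.47, limma adjusted p = 0.544, well above background on 19 of 38 arrays). Ifng, the cytokine that induces Cxcl9, differed by 1.40 (SE 0.54). Cxcl3, an ELR ligand, differed by 2.11 (SE 0.83, well above background on 27 of 38 arrays). Over time 0 passed, and 10 had a positive and 27 a negative slope (median -0.028 against 0.0018 over all probes). Those of smallest p were Adam17, a protease that sheds membrane proteins (-0.052 per week), Igtp, an interferon-induced GTPase (-0.051), and Il8rb, the receptor now named Cxcr2 (-0.092). In the difference in slope 0 passed, and those of smallest p were Cxcl15 (0.149 per week), Nfkbia (0.13) and Dpp4, a peptidase that trims chemokines (0.080).

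Against KAL-1, the receptor of the ELR ligands was the pathway gene of smallest or second smallest p at each dose, and 0 genes of the lists passed. Il8rb (Cxcr2) was higher than HFC by 1.40 on HF5 (SE 0.70), by 1.23 on HF20 (SE 0.70) and by 1.29 on HF75 (SE 0.72), and by 1.31 for the mean of doses (SE 0.58, limma p = 0.0344, adjusted p = 0.9999). Its probe was well above background on 28 of 38 arrays. All doses were set against the same HFC arrays, so its return at each dose is not independent evidence. Neutrophil genes were higher than HFC for 9 of 10 on HF5 and 10 of 10 on HF20 and for 5 of 10 on HF75 (medians 0.95, 0.99 and 0.12), and their part in the Il8rb level was not tested. Gbp2, an interferon-induced GTPase, differed by -0.74 on HF5 and -0.36 on HF20, and by -0.33 for the mean of doses. The others of smallest p were Dpp4 on HF5 (-0.67), Il1b on HF20 (0.77), Adam10 (-0.60) and Adam17 (-0.77) on HF75, and Adam17 for the mean of doses (-0.37).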

How the data were processed

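Single-colour Agilent arrays of 38 RNA samples were analysed. Per the file headers the signal intensities came from Feature Extraction 10.5.1.1 (the submitters' processing notes name 9.1), and the deposited processed signal is background-subtracted intensity. Control spots and outlier-flagged spots were left out, spots of a probe were averaged, and log2 intensity minus the log2 75th percentile of the array was taken as the level. The deposited series table holds log2 ratios to the LFC array of the time point (r of at least 0.992 with the same ratios from the scanner files, column medians from -0.455 to 1.31, hence not centred), and was used as an alternative. Groups came from the labels.

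A probe was tested where, in 1 diet or more, a fraction of 0.5 or more of its arrays gave a signal well above background (31040 probes for the diets, 33584 for the doses). The test was limma 3.58.1 in R 4.3.3 (lmFit, eBayes, two-sided, Benjamini-Hochberg over all probes, threshold 0.05). Time point was a block for HFC against LFC, the difference in slope and the doses. The pairing comes from the shared time label, and deviations from the diet means correlated from -0.140 (Week 12) to 0.635 (Week 9). For slopes, Week 0 was set at Day 14, and diet was a term. Named genes were the 9 members, the 3 genes of highest Pearson r with each, and the pathway genes past the threshold or, with none, the 3 of smallest p. The members and lists were chosen with earlier results of these data known. The fits were tested on simulated data. Alternatives, 30 limma settings with the stated one, covered scaling, background correction, filters, blocks, brightness, left-out arrays and the methods' t-test. The number of arrays limits precision. Promoter windows came from RefSeq (GRCm38.p6). Protein sequences were not used here.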

Additional observations from a re-analysis of the deposited data

Results flagged for a closer look

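In 6 of the 45 sets formed by 1 gene within 1 diet, a single array lay far from the others by Dixon's criterion, where chance would give 2.25, about 1 in 20. The sets share arrays and genes whose levels ran together, so 6 against 2.25 is no test of an excess. Cxcl1 stood at -2.24 on HFC of Week 9, against 2.39 on the nearest of the other HFC arrays. Cxcl2 stood at -4.50 on the same array, against -0.43. That array was rich in adipocyte genes and low in immediate early genes. Cxcl2 stood at -2.97 on HF5 of Week 12, the dimmest array, where it was not well above background, against 0.60 on the nearest HF5 array. Cxcl9 stood at -2.39 on HF20 of Week 12, against -0.28, and was -2.07, not well above background, on HF5 of the same week. Cxcl14 stood highest at Week 6 on LFC (3.26, against 0.78) and on HF5 (3.10, against 1.61), and was 2.08, 2.27 and 1.54 on HFC, HF20 and HF75 of that week. The arrays of Week 6 were low in visceral fat genes, and the part of this in the Cxcl14 level was not tested.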

How the results depend on the processing

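Over all settings, 0 CXC chemokine probes were called in any comparison, and 563 values of single genes kept their direction, while 47 changed sign, all of them without passing the test. Probes called for the slope over time, 154 as stated, numbered 1 with normexp, 75 among probes well above background on every array, 27 with scan day and 91 with slide as a random block, 8 without Days 6 and 10, 98 without Weeks 9 and 12, 95 without the 4 adipocyte-rich arrays and 7 without Days 6 and 10 and Week 6, and from 41 to 222 in the leave-one-out fits; the causes were not tested. The other comparisons called 0 probes in every setting. Settings without the 4 adipocyte-rich arrays, without Days 6 and 10 with Week 6, and without the 4 arrays of conflicting dose labels were chosen after seeing the data, as were the spans of levels and diet means without such arrays or weeks and the single-dose differences without a week.

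Without the time point as a replicate block, the HFC and LFC differences were the same by construction (Cxcl1 1.611), the smallest adjusted p among the members was 0.917, no call changed, and 0 members had an unadjusted p below 0.05 in the HF5 comparison in place of 1. Cxcl14 in that comparison also lost this level with array brightness as a covariate, without Week 9, without Weeks 9 and 12, without the HF5 array of Week 12 and without the 4 adipocyte-rich arrays.

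For HFC minus LFC, Cxcl13 turned to -0.047 with array brightness as a covariate and Cxcl5 to -0.25 with normexp. For the mean of doses, scan day as the block gave -0.457 for Cxcl1, -0.140 for Cxcl2, -0.493 for Cxcl10 and -0.5005 for Cxcl16. Without the 4 adipocyte-rich arrays they were -0.413, -0.186, -0.574 and -0.476, and Cxcl5 was 0.948. Without Weeks 9 and 12, Cxcl10 was -0.136, Cxcl16 -0.097 and Cxcl5 1.32. Normexp gave -0.197 for Cxcl10, -0.101 for Cxcl16 and 0.285 for Cxcl5. Cxcl16, at 0.0037 as stated, was also -0.018 with quantile scaling, -0.0036 with slide as a random block, -0.117 with brightness and -0.197 as the mean of its probes. Without the arrays of conflicting dose labels, Cxcl12 was 0.020 and Cxcl5 0.069. Leave-one-out values of the mean of doses ran from -0.586 to 1.40 for Cxcl1, -0.300 to 1.84 for Cxcl2, -1.23 to 0.659 for Cxcl5, -0.714 to 0.728 for Cxcl10, -0.160 to 0.0026 for Cxcl12 and -0.5304 to 0.458 for Cxcl16, with Week 9 left out at the end away from the stated sign for Cxcl1, Cxcl2, Cxcl5, Cxcl10 and Cxcl16.

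For the slope over time per week, Cxcl1 and Cxcl16 were 0.0091 and 0.011 without Weeks 9 and 12, and Cxcl1, Cxcl2 and Cxcl16 were 0.017, 0.0071 and 0.016 without the 4 adipocyte-rich arrays. Cxcl12 was -0.00065 with quantile scaling. Cxcl5 and Cxcl9 were 0.026 and 0.022 without Days 6 and 10, and 0.0195 and 0.022 without Week 6 as well. Leave-one-out slopes ran from -0.0063 to 0.031 for Cxcl12 and from -0.031 to 0.0012 for Cxcl5. Of the values of r for the nearest genes, without Weeks 9 and 12 or as Spearman's rho, 14 moved by 0.1 or more and 40 did not. Signal over background limits Cxcl5 most, since 18 of 38 arrays gave it no value well above background.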
